A study of Mus musculus with 4 samples.

Results

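The transcripts of 10 leukocyte integrin genes, Itgax, Itgam, Itgal, Itgad, Itga4, Itga6, Itgb1, Itgb2, Itgb3 and Itgb7, were followed in blood monocytes with and without the transcription factor RBP-J. They were chosen by gene symbol, and all 10 were found among the 23995 symbols of the expression table. Of these, 9 reached a level of at least 1 FPKM (a count of fragments corrected for transcript length and library size) in at least 1 library. Itgad did not and stays outside the counts below, although its values are given. The study sequenced RNA from Ly6Chi and Ly6Clo blood monocytes of control mice, Rbpj+/+ Lyz2cre/cre (titled WT, with the genotype Lyz2-Cre, in the sample labels), and of RBP-J-deficient mice, Rbpj fl/fl Lyz2cre/cre. Both genotypes carry Cre, which is driven from the Lyz2 locus, active in monocytes, macrophages and neutrophils. The mice were 7 to 12 weeks old and matched for gender and age. Each of the 4 groups was 1 library, and how many mice contributed to a library is not given in the sources used here. No difference below therefore has a replicate check within these libraries, and no test was made. The depth of the libraries is unknown, so the precision of low values cannot be given.

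Integrins are heterodimers of an alpha and a beta chain that bind other cells, complement fragments and extracellular matrix. In leukocytes the beta2 chain (Itgb2, CD18) pairs with alphaL (Itgal, CD11a) to form LFA-1, with alphaM (Itgam, CD11b) to form Mac-1, with alphaX (Itgax, CD11c) and with alphaD (Itgad, CD11d). The alpha4 chain (Itga4) pairs with beta1 (Itgb1) in VLA-4 or with beta7 (Itgb7). The alpha6 chain (Itga6) pairs with beta1 in these cells, and beta3 (Itgb3) is the partner of alphaIIb on platelets and of alphaV on many cells. Crawling of Ly6Clo monocytes along the vessel wall is known to depend on LFA-1, and CD11c is a surface marker that distinguishes Ly6Clo from Ly6Chi monocytes.

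The genes of the beta2 partners lie together. In the mouse genome build GRCm38, with GENCODE gene limits, Itgal was at chr7:127296260-127335138, Itgam at chr7:128062640-128118491, Itgax at chr7:128129547-128150657 and Itgad at chr7:128154376-128223816, all on the plus strand. Itgam ended 11055 bp before Itgax, and Itgax ended 3718 bp before Itgad, whereas 727501 bp separated Itgal from Itgam. The others were spread over 5 chromosomes, with Itga4 at chr2:79255426-79333123, Itga6 at chr2:71745616-71858416, Itgb1 at chr8:128685654-128733200, Itgb2 at chr10:77530252-77565708, Itgb3 at chr11:104608000-104670476 and, on the minus strand, Itgb7 at chr15:102215995-102231944.

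The promoter sequences available from RefSeq (GRCm38.p6) covered 5 of the 10 genes, Itgax, Itgam, Itga4, Itgb1 and Itgb7. The 250 bases before the transcription start are shown for Itgax (chr7:128129300-128129549, plus strand) and for its neighbour Itgam (chr7:128062390-128062639, plus strand), because their transcripts behaved differently between genotypes. Those of Itgb7 (chr15:102231936-102232185, minus strand) are shown too. Itgb7 was lower without RBP-J in both subsets, as were all members but Itga4, several of them only slightly in Ly6Chi cells. Capitals mark GAGGAA or its reverse complement, a core bound by the myeloid transcription factor PU.1.
Itgax: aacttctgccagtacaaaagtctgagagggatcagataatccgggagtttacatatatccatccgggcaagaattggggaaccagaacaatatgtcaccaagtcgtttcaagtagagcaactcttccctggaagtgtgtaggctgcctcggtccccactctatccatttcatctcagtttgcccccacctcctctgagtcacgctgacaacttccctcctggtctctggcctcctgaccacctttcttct
Itgam: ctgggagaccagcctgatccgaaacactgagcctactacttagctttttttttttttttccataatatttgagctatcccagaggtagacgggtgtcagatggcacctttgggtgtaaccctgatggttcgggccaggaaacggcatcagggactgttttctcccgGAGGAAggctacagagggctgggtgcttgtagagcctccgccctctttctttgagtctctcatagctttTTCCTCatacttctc
Itgb7: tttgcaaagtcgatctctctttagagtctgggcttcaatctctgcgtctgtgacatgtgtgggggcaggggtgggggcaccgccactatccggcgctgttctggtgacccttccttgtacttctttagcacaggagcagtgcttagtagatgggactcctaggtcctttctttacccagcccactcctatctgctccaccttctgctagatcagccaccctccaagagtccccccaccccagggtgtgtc
The core TGGGAA, which is bound by RBP-J, was searched on both strands in the same windows. It was in 0 of the 5 integrin promoters and in 21.6% of all 32851 promoters of that length. GAGGAA, which shares no match with TGGGAA, was in the promoters of Itgam, at positions -84 and -15 from the start, and of Itgb1, at position -9, that is in 2 of 5 against 23.3% of all promoters. These matches describe the letters of this window only.

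Rbpj itself, the deleted gene, had FPKM values of 8.30 in control Ly6Clo, 2.43 in RBP-J-deficient Ly6Clo, 14.4 in control Ly6Chi and 2.85 in RBP-J-deficient Ly6Chi monocytes, lower in both deficient libraries. The summed FPKM of 7 Ly6Chi marker genes was 112, 655, 4746 and 4001 in the same order, and that of 8 Ly6Clo marker genes was 3752, 2885, 637 and 1137. By these sums each subset was highest in its own markers within a genotype, but single Ly6Clo markers did not all follow the sum. In controls 7 of the 8 were 2-fold higher in Ly6Clo than in Ly6Chi monocytes, beside 5.21% of all expressed genes. Without RBP-J 2 were higher and 1 was lower, beside 8.41% and 10.6% of all expressed genes. Between genotypes in Ly6Clo cells, 2 of the 8 were 2-fold lower (Nr4a1 and Ace) and 1 was higher (Cd36). Over all expressed genes, 11.1% were lower and 8.97% higher. Nr4a1, a transcription factor that Ly6Clo monocytes require, was at 618.2, 65.6, 213.9 and 182.5 FPKM (log2 ratio between genotypes in Ly6Clo cells -3.22). By flow cytometry and qPCR, the paper found Nr4a1 similar in Ly6Clo cells of both genotypes, unlike in these libraries. Ace was at 108.7, 17.7, 26.4 and 24.7 FPKM (-2.55), and both were highest in control Ly6Clo monocytes. Cd36 was at 425.6, 944.7, 26.9 and 137.3 FPKM (1.15). Of the 7 Ly6Chi markers, 6 were 2-fold higher in RBP-J-deficient than in control Ly6Clo monocytes, beside 8.97% of all expressed genes. The part of these markers in the results below was not tested. In bulk RNA, fewer cells of a type and less RNA per cell cannot be told apart.

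Among the alpha chains above 1 FPKM, Itgax had the widest span of ratios between libraries. Its FPKM was 33.7 in control Ly6Clo, 3.10 in RBP-J-deficient Ly6Clo, 3.36 in control Ly6Chi and 1.45 in RBP-J-deficient Ly6Chi monocytes. The control Ly6Clo library stood apart, and the RBP-J-deficient Ly6Clo level was close to that of control Ly6Chi cells. All ratios below are on the log2 scale of FPKM + 1, which understates differences of low values. Without RBP-J, Itgax was 8.46-fold lower in Ly6Clo monocytes (ratio -3.08) and 1.78-fold lower in Ly6Chi monocytes (ratio -0.83). The Ly6Chi ratio rests on low values and was -1.15 with 0.1 added in place of 1, and -0.37 with 5 added. Only 0.156% of the 10240 genes at 1 FPKM or more had a lower ratio in the Ly6Clo comparison. By the fold threshold of the study, at most 0.2 of the control value, Itgax was the single member past it, where 69 of all expressed genes (0.674%) were. The study joined this fold to a p-value criterion, which was not applied here. In controls, Itgax was 7.97-fold higher in Ly6Clo than in Ly6Chi monocytes (2.99), and without RBP-J the ratio between the subsets was 0.74. By flow cytometry in replicate mice, the paper found less CD11c protein on RBP-J-deficient than on control Ly6Clo monocytes. The same held after bone marrow transplantation and with Ccr2 deleted as well. The paper described CD11c of blood Ly6Chi monocytes as normal, whereas Itgax RNA was lower there in these libraries.

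Itgal, the alpha chain of LFA-1, had FPKM values of 209.9, 74.2, 93.6 and 83.6 in control Ly6Clo, RBP-J-deficient Ly6Clo, control Ly6Chi and RBP-J-deficient Ly6Chi libraries, an order used from here on. Again the control Ly6Clo library was the high one, and the other libraries lay near each other. The genotype ratio was -1.49 in Ly6Clo and -0.16 in Ly6Chi monocytes. Between subsets, Itgal was higher in Ly6Clo cells of controls (1.16) but not in those of RBP-J-deficient mice (-0.17).

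Itgam, the alpha chain of Mac-1, had FPKM values of 57.7, 51.5, 66.2 and 63.7. All its ratios were small, -0.16 and -0.05 between genotypes in Ly6Clo and Ly6Chi cells and -0.19 and -0.30 between subsets in control and deficient mice. Antibodies to CD11b belong to the study's monocyte stains, and the gate used to isolate the sequenced cells is not given, so the part of sorting in these similar levels was not tested. Itgad was at or below 0.389 FPKM in every library, with values of 0.389, 0.0174, 0.0327 and 0.0121. The highest of these was again control Ly6Clo, but all lie under the level of 1 FPKM, and the table gives Itgad the same locus as the neighbouring gene Cox6a2.

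Itgb2, the shared beta2 chain, was the most abundant of the 10 transcripts in every library, with FPKM values of 1111, 674.2, 615.9 and 608.4. It was highest in control Ly6Clo monocytes and near the Ly6Chi level in RBP-J-deficient Ly6Clo monocytes. Its genotype ratios were -0.72 in Ly6Clo and -0.02 in Ly6Chi cells, and its subset ratios were 0.85 in control and 0.15 in deficient cells, none past 2-fold.

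**Figure D1:**
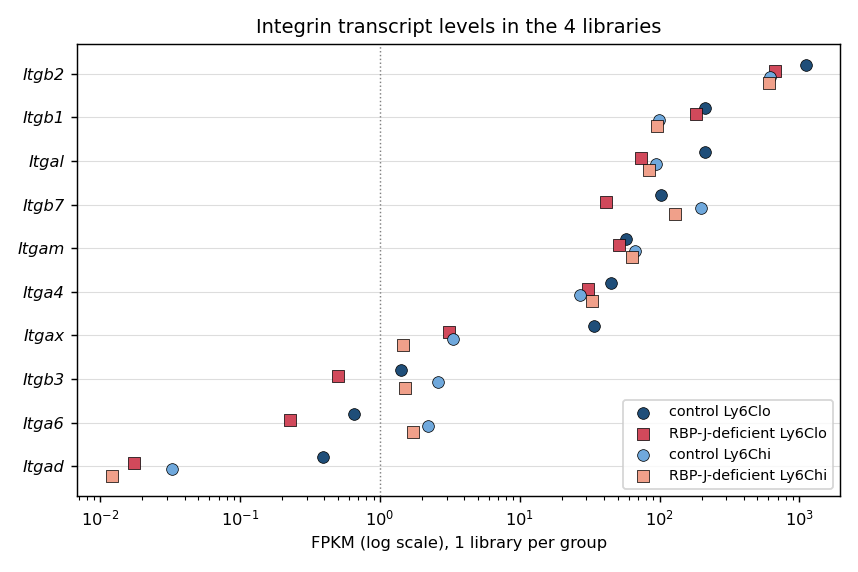
FPKM of the 10 integrin genes on a log axis, with 1 point for each library and the dotted line at 1 FPKM; points are shifted vertically for visibility and there are no error bars, since each group is 1 library. Control Ly6Clo monocytes (dark blue) stand to the right of the other libraries for Itgax, Itgal, Itgb2 and Itgad, while Itgb7, Itgb3 and Itga6 were highest in control Ly6Chi monocytes.

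The makeup of the alpha chains that share Itgb2 differed accordingly. Of the summed FPKM of Itgal, Itgam, Itgax and Itgad, Itgal held 69.6%, 57.6%, 57.4% and 56.2% in control Ly6Clo, RBP-J-deficient Ly6Clo, control Ly6Chi and RBP-J-deficient Ly6Chi libraries. Itgax held 11.2%, 2.41%, 2.06% and 0.976%. Itgam held 19.1%, 40.0%, 40.6% and 42.8%, a larger share in the last 3 libraries although its own level was similar in all 4. The sum of the 4 alpha chains was 301.7 FPKM in control Ly6Clo monocytes and 128.8 in RBP-J-deficient Ly6Clo monocytes, against 163.2 and 148.8 in the Ly6Chi libraries. Without Itgax the sums were 268.0, 125.7, 159.8 and 147.3, so the order of the libraries did not rest on Itgax. Itgb2 exceeded the alpha sum 3.68-fold, 5.24-fold, 3.77-fold and 4.09-fold, most in the RBP-J-deficient Ly6Clo library. For the neighbouring genes Itgam and Itgax, the FPKM of Itgam was 1.71 times that of Itgax in control Ly6Clo cells and 16.6 times, 19.7 times and 43.8 times that of Itgax in the others.

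Among the alpha4 and alpha6 integrins, Itga4, the alpha chain of VLA-4, had FPKM values of 45.0, 30.7, 26.7 and 33.0. It was highest in control Ly6Clo cells. Its genotype ratios had opposite signs, -0.54 in Ly6Clo and 0.29 in Ly6Chi monocytes, and so did its subset ratios, 0.73 in control and -0.10 in deficient mice. None passed 2-fold. Itga6, a laminin receptor chain, was low, at 0.648, 0.228, 2.21 and 1.72 FPKM, and was higher in both Ly6Chi libraries. Its subset ratio was -0.96 in controls and -1.15 without RBP-J, the latter past 2-fold, and its genotype ratios were -0.42 and -0.24.

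The beta1 chain, Itgb1, had FPKM values of 210.3, 182.3, 99.6 and 95.1. Both Ly6Clo libraries lay above both Ly6Chi libraries, with subset ratios of 1.07 in control and 0.93 in deficient mice, and the genotype ratios were -0.20 in Ly6Clo and -0.07 in Ly6Chi cells. Itgb1 and Itgal, at nearly equal levels in control Ly6Clo monocytes (210.3 and 209.9 FPKM), thus stood apart in the RBP-J-deficient ones (182.3 and 74.2 FPKM).

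Itgb7, the other partner of alpha4 and a chain used in homing to the gut, showed the reverse subset order, with FPKM values of 102.5, 41.1, 197.3 and 129.2. It was lower without RBP-J in both subsets, with genotype ratios of -1.30 in Ly6Clo and -0.61 in Ly6Chi cells. It was lower in Ly6Clo than in Ly6Chi cells by -0.94 in controls and -1.63 without RBP-J on the log2 scale. The FPKM of Itgb7 over that of Itgb1 was 0.488 in control and 0.226 in deficient Ly6Clo cells, and 1.98 and 1.36 in the corresponding Ly6Chi cells, so Itgb7 exceeded Itgb1 in Ly6Chi libraries only. Itgb3 was low, at 1.42, 0.505, 2.62 and 1.5 FPKM, with genotype ratios of -0.68 in Ly6Clo and -0.53 in Ly6Chi cells and subset ratios of -0.58 and -0.73.

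**Figure D2:**
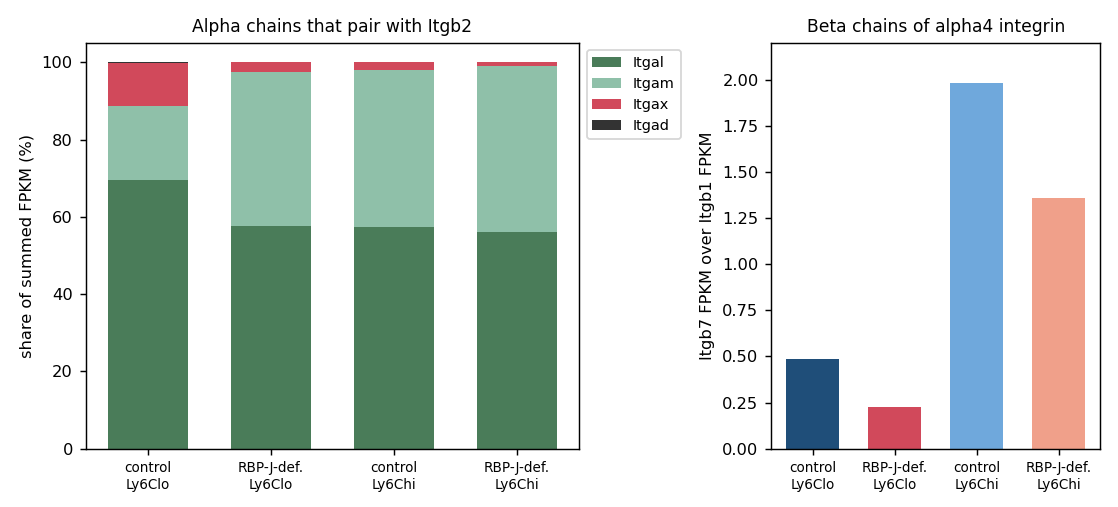
Left, share (%) of each alpha chain in the summed FPKM of the 4 alpha chains that pair with Itgb2, by library. Right, the FPKM of Itgb7 divided by that of Itgb1 in the same 4 libraries, with 1 library per bar and no error bars. The Itgax share was 11.2% in control Ly6Clo monocytes and at most 2.41% elsewhere, and the Itgb7 to Itgb1 ratio was above 1 in the Ly6Chi libraries only.

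Ordered by level, Itgb2 came first in all 4 libraries and Itgad last. In control Ly6Clo monocytes the order was Itgb2, Itgb1, Itgal, Itgb7, Itgam, Itga4, Itgax, Itgb3, Itga6 and Itgad, and in RBP-J-deficient Ly6Clo monocytes Itgb7 came after Itgam. In both Ly6Chi libraries Itgb7 was second, ahead of Itgb1 and Itgal. With 1 library per group, no pair of neighbours in these orders can be set against a spread.

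Taking the 9 expressed integrins as a list, 3 were at least 2-fold lower (Itgax, Itgal and Itgb7) and 0 at least 2-fold higher in RBP-J-deficient than in control Ly6Clo monocytes, where 11.1% of the 10240 expressed genes were lower and 8.97% higher. All 9 ratios were below 0, against 48.2% of all expressed genes, and their median was -0.68 against 0.02. These directions were the same with TPM, median centring and correction for GC content. TPM moved the median of all genes by -0.24 in this comparison and by -0.18 in the subset comparison of RBP-J-deficient mice, and on that scale Itgb2 also passed 2-fold (-1.02).

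In Ly6Chi monocytes, 0 of the 9 integrins were past 2-fold in either direction between genotypes, against 2.64% of all genes higher and 4.56% lower. The ratios lay between -0.83 for Itgax and 0.29 for Itga4, and 8 of the 9 were below 0, beside 49.3% of all expressed genes. Several of the 8 were near 0, such as Itgam (-0.05) and Itgb1 (-0.07). The direction was not fixed for Itgb2, which was at -0.02 as deposited and at 0.06 after correction for GC content. The genotype ratio was lower in Ly6Clo than in Ly6Chi cells for all 9 members, beside 46.3% of all expressed genes. The difference was small for Itgam (-0.11), Itgb1 (-0.14), Itgb3 (-0.15) and Itga6 (-0.19). It was 2-fold or more for Itgax (-2.25) and Itgal (-1.33), which 7.77% of all genes showed in this direction and 7.15% in the other.

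Between subsets of control mice, 3 of the 9 (Itgax, Itgal and Itgb1) were at least 2-fold higher in Ly6Clo monocytes and 0 lower, against 5.21% and 7.75% of all genes. Between subsets of RBP-J-deficient mice, 0 were higher and 2 (Itga6 and Itgb7) lower, against 8.41% and 10.6% of all genes. The comparisons share libraries with the genotype comparisons, so they are not separate evidence. The median of the 9 ratios was 0.73 in controls and -0.17 without RBP-J.

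**Figure D3:**
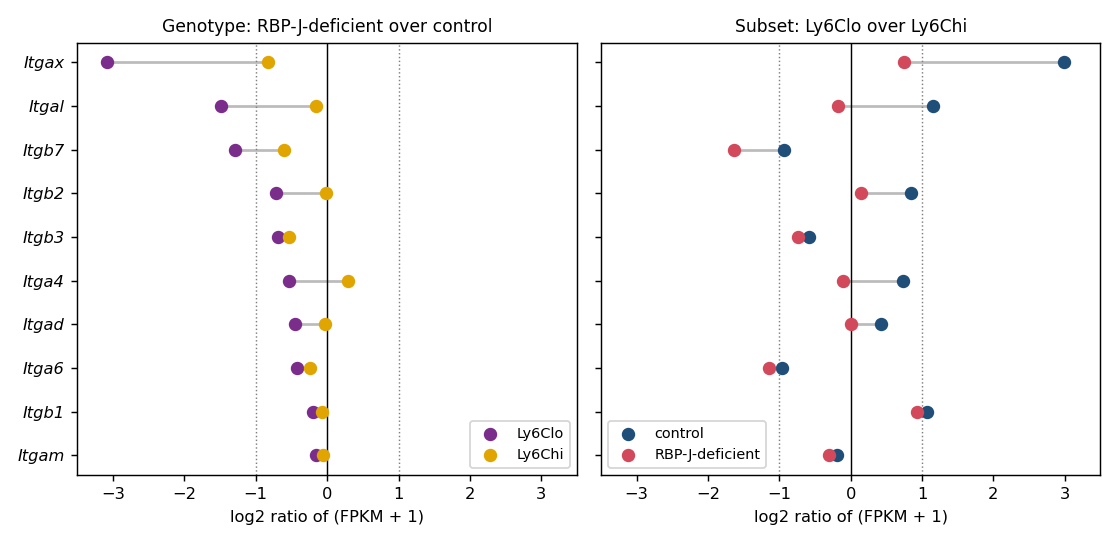
Log2 ratios of (FPKM + 1) for the 10 integrins, between genotypes (left, Ly6Clo purple and Ly6Chi yellow) and between subsets (right, control blue and RBP-J-deficient red), with dotted lines at 2-fold, each ratio from 1 library against 1 library. Itgax lay at -3.08 in Ly6Clo monocytes. Every integrin had a lower genotype ratio in Ly6Clo than in Ly6Chi monocytes, several by little, beside 46.3% of all expressed genes.

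Base composition moved with the genotype ratio. The 6086 expressed genes whose FPKM averaged 5 or more and whose GC content was known were split into 5 groups by the GC content of their longest transcript. The median Ly6Clo ratio was 0.45, 0.30, 0.14, -0.15 and -0.42 from the lowest to the highest GC content, and 2.30% to 28.3% of genes were 2-fold lower. Itgb7 had the highest GC content of the members (58.0%), Itga4 the lowest (41.1%), and Itgax (51.6%) and Itgal (53.2%) lay between. After removal of this trend, Itgax was at -3.01 and Itgal at -1.29, while Itgb7 was at -0.82 and no longer past 2-fold, which left 2 of 9 members lower against 9.72% of all genes. Itga4, with a low GC content, moved the other way, from -0.54 to -0.97. The Itgb1 ratio between control subsets was 0.97 after the correction, just inside 2-fold.

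**Figure D4:**
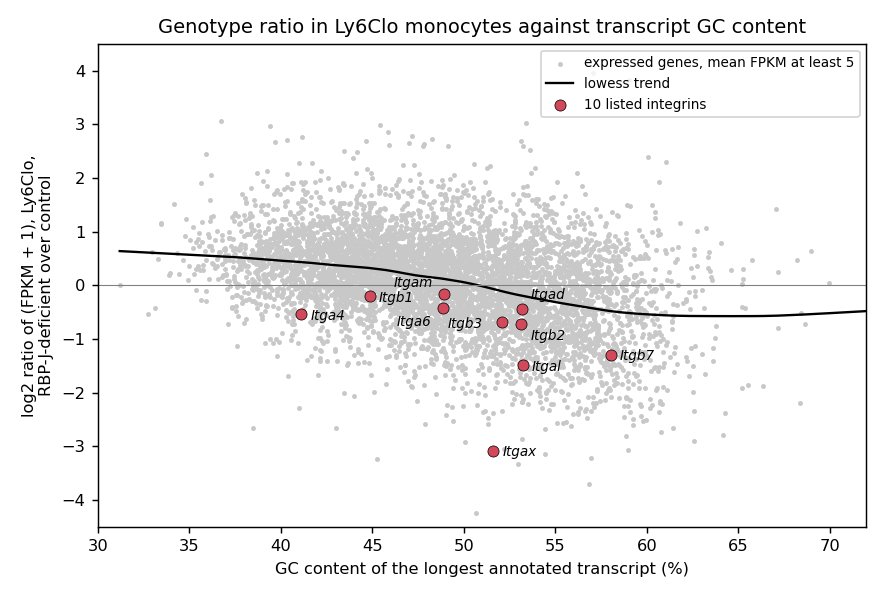
Genotype log2 ratio in Ly6Clo monocytes against transcript GC content (%) for 6086 expressed genes (grey), of which 8 lie beyond the axes, with a lowess trend (black line) and the 10 integrins (red). The trend runs downward with GC content, and Itgax and Itgal lie below it, at -3.01 and -1.29 relative to the trend.

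Markers of other cell types were set beside these values. The B cell markers did not move as 1 group in Ly6Clo cells. In control Ly6Clo monocytes Cd79a was at 9.02 FPKM and Cd79b at 41.9 FPKM, against 1.13 and 100.2 FPKM without RBP-J. In the whole B cell list, 5 of 8 genes were expressed. Of these, 3 were 2-fold lower and 1 was higher in Ly6Clo cells without RBP-J, beside 11.1% and 8.97% of all expressed genes. The summed FPKM of the list was 70.3, 103.6, 27.4 and 47.2. The summed T cell markers were at most 2.66 FPKM, with none of 8 genes at 1 FPKM in any library. The 9 platelet markers summed to 138.8, 145.0, 389.9 and 336.7 FPKM and so were higher in the Ly6Chi libraries, as Itga6 and Itgb3 were. Summed conventional dendritic cell markers, of which 4 of 7 were expressed, were 61.2, 59.2, 322.4 and 237.7 FPKM. The largest values in this sum were those of Cd209a (41.8, 30.6, 182.5 and 139.4 FPKM). Zbtb46 and Xcr1, under 1 FPKM in every library, were highest in control Ly6Clo monocytes, and the other markers of the list in control Ly6Chi monocytes. Summed erythroid markers were 2103, 902.9, 1087 and 886.0 FPKM, and this order rested on Hba-a2 (1171, 89.4, 113.2 and 182.6 FPKM), which is near-identical to Hba-a1. The joined row of Hba-a1 and Hba-a2 was at 925.1, 811.9, 970.5 and 698.7 FPKM, highest in control Ly6Chi. The part of these cells in the integrin values was not tested.

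Other integrin subunits were rare, with 5 of 16 expressed. Between genotypes, 1 was 2-fold lower in Ly6Clo cells (Itga2b, the platelet alphaIIb chain, -1.09) and 0 higher, and 3 were lower in Ly6Chi cells (Itga1, -1.07, Itga2b, -1.22, and Itga5, the fibronectin receptor chain, -1.25). Over all expressed genes, 11.1% were lower in Ly6Clo and 4.56% in Ly6Chi cells. Itga2b belongs to the platelet markers too, and it was not past 2-fold in Ly6Clo cells after GC correction. Itgav, which pairs with Itgb3 and Itgb5, had FPKM values of 17.4, 17.6, 5.76 and 11.7, with nearly equal values in both Ly6Clo libraries. Itgb5 had 20.3, 14.8, 14.7 and 12.9 FPKM.

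Integrins are switched on from inside the cell by talins and kindlins, which bind the beta tail under control of the GTPase Rap1. Of 24 activators and adaptors, 20 were expressed, and 6 were 2-fold lower and 0 higher in RBP-J-deficient Ly6Clo monocytes, with a median ratio of -0.51, beside 11.1% and 8.97% of all expressed genes and a median of 0.02. Fermt3 (kindlin-3), needed for activation of leukocyte integrins, had FPKM values of 132.5, 37.2, 149.0 and 86.6 and a ratio of -1.80 in Ly6Clo cells. Rasgrp2, which activates Rap1, was at 76.5, 23.7, 60.1 and 50.3 FPKM (ratio -1.65), and Rassf5 (RAPL), a Rap1 effector for LFA-1, was at 197.8, 69.3, 115.6 and 98.4 FPKM (-1.50). For each of these, the RBP-J-deficient Ly6Clo library was the lowest of the 4. Parvg, an ILK partner, was at -1.84, Cyth1, which binds the beta2 tail, at -1.30 and Flna, an actin crosslinker that binds beta tails, at -1.10. Others of the list were not past 2-fold, such as Tln1 (talin-1) at 35.0, 25.6, 36.2 and 26.6 FPKM (-0.44) and Rap1b at 415.6, 742.4, 192.1 and 277.4 FPKM (0.84). After GC correction 4 of the 20 were lower (Fermt3, Rasgrp2, Rassf5 and Parvg), beside 9.72% of all genes. In Ly6Chi cells, 0 were past 2-fold, beside 4.56% of all genes lower and 2.64% higher.

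Of 9 kinases and ITAM adaptors that signal from engaged integrins, 8 were expressed, and 1 was lower and 1 higher in RBP-J-deficient Ly6Clo cells, beside 11.1% and 8.97% of all genes. The lower one was Ptk2b (Pyk2) at 53.8, 17.3, 33.6 and 19.4 FPKM (-1.58), and the higher one was Ptk2 (FAK), which was low at 0.301, 1.74, 0.350 and 0.108 FPKM (1.07) and was not past 2-fold after GC correction. The Src-family kinases Fgr and Lyn were at -0.87 and 0.12, and Syk was at -0.76. Tyrobp, an ITAM adaptor, was at 4293, 2195, 4702 and 4281 FPKM (-0.97). Fcer1g, the other ITAM adaptor of the list, went the other way, at 8889, 12099, 5250 and 6944 FPKM (0.44).

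Of 15 ligands and counter-receptors, 8 were expressed, and without RBP-J 2 were higher and 1 lower in Ly6Clo cells, beside 8.97% and 11.1% of all genes. F11r (JAM-A), a ligand of LFA-1, had FPKM values of 8.59, 0.272, 11.1 and 8.11 (-2.91), the only low value being that of the RBP-J-deficient Ly6Clo library. Fn1 (fibronectin), a ligand of VLA-4, was at 0.284, 3.66, 110.3 and 69.7 FPKM (1.86), and C3, the source of the iC3b fragment bound by Mac-1 and CD11c, was at 18.5, 61.7, 67.8 and 81.4 FPKM (1.68). Both were higher in Ly6Chi cells, and Fn1 is also 1 of the 7 Ly6Chi markers. Icam1 and Icam2, ligands of LFA-1, were at -0.38 and -0.65, and Cd47 at 0.08.

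**Figure D5:**
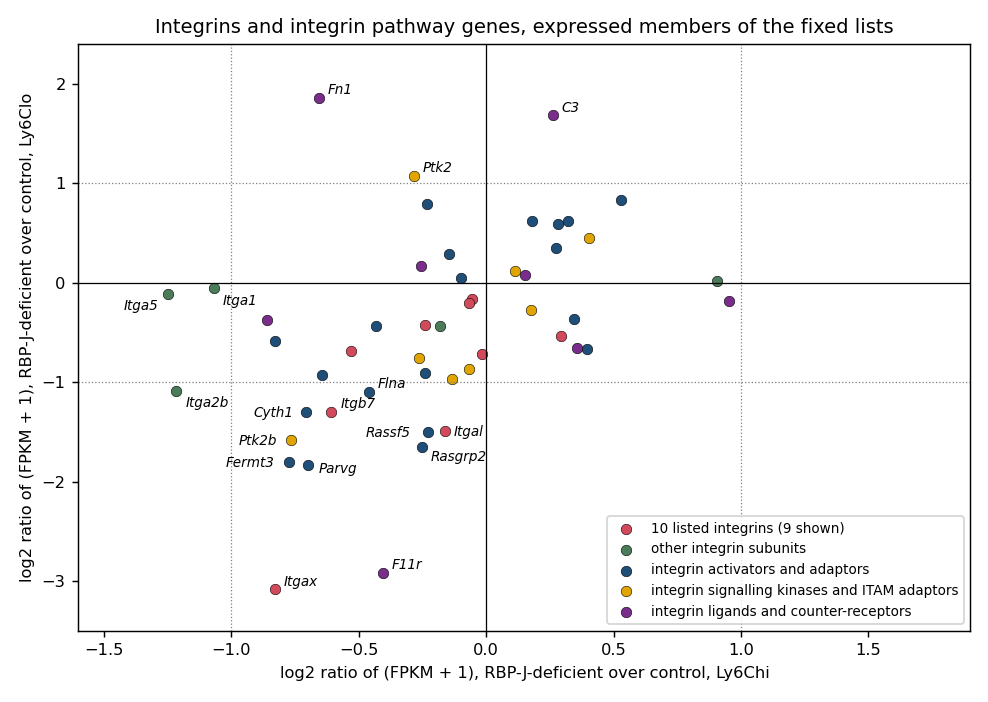
Genotype log2 ratio of (FPKM + 1) in Ly6Clo (vertical) against Ly6Chi monocytes (horizontal) for the expressed integrins and the 4 lists of pathway genes, with dotted lines at 2-fold and names for genes past 2-fold in either subset, each ratio from 1 library against 1. Itgax and F11r lie lowest in Ly6Clo monocytes, at -3.08 and -2.91.

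The genes most like Itgax were those with the smallest root mean square difference in log2(FPKM + 1), after centring each gene on its own mean over the 4 libraries, among 7258 genes at 5 FPKM or more in at least 1 library. The nearest were Cd22 (0.27), Dusp5 (0.31), Tgm2 (0.35), Adamdec1 (0.44), Gpr31b (0.45), Rbpms (0.52), Fam109b (0.52) and Tgfbr1 (0.52). Cd22, a sialic acid binding inhibitory receptor, belongs to the B cell markers described above and was among the 3 that were 2-fold lower in Ly6Clo cells (-3.15). It had FPKM values of 12.9, 0.563, 1.12 and 0.502. Dusp5, a phosphatase of ERK, had 41.8, 6.75, 3.74 and 2.97. Tgm2, a transglutaminase, had 53.1, 10.3, 6.04 and 2.74, and Tgfbr1, a TGF-beta receptor, had 56.6, 10.8, 16.0 and 9.21. All were highest in control Ly6Clo monocytes, as their choice by likeness to Itgax made likely. The choice of genes depended on the measure, since 0 of the 8 were among the first 8 by Pearson correlation over the same 4 libraries.

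Of 19 genes other than members within 250 kb of Itgax on chromosome 7, 12 were expressed, of which 3 were 2-fold lower in RBP-J-deficient Ly6Clo monocytes (Bckdk, -1.46, Cox6a2, -1.05, and BC017158, -1.51) and 2 were higher (Vkorc1, 1.11, and 9130023H24Rik, 1.70), with a median of -0.25, beside 11.1% of all expressed genes lower and 8.97% higher. The lowest of these ratios, -1.51, was above that of Itgax. Several of these genes share 1 deposited locus, as Itgad and Cox6a2 do, so the authors' assignment of reads could split such values.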

How the data were processed

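Total RNA of isolated blood monocytes was sequenced with paired ends on an Illumina HiSeq2500. The authors deposited FPKM values per gene for each of the 6 pairs of the 4 libraries. The submitters' processing notes name CASAVA 1.8, TopHat2 2.1.0, Cufflinks 2.2.1 and the build mm10, with no role or order, and the annotation is not given in the sources used here. The deposited table also holds log2 fold changes, test statistics, p-values, q-values and a significance call in the layout of Cuffdiff, and an unnamed last column that equals the ratio of FPKM + 1. These are the authors' comparisons and were not used. 18 of the gene and library values differed between pairs, none of a member, and each ratio was taken from the pair compared.

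Ratios were log2 of (FPKM + 1), with a gene counted as expressed at 1 FPKM or more in at least 1 library and as higher or lower at 2-fold. With 1 library in each of the 4 groups, no test was made, and the authors' FPKM carry no depth, so no interval or floor is given. A ratio on this scale understates differences of low genes. GC content was read from the longest GENCODE transcript of GRCm38, and the trend was a lowess curve (fraction 0.3, 3 iterations) over genes of mean FPKM 5 or more. GC content was known for 94.9% of expressed genes. Promoters came from RefSeq. Scripts used Python 3.11.15, numpy 2.4.6, pandas 2.3.3 and statsmodels 0.14.6 and were tested on simulated data. The members and the gene lists were chosen with earlier results of these data known. All 10 members were described, the genes most like Itgax were the 8 nearest by root mean square difference, and from other lists the genes past 2-fold were named with a few others of known role, chosen after their values were seen. Alternatives were pseudocounts of 0.1 and 5, TPM, median centring, GC correction, a filter of 5 FPKM, folds of 1.5 and of 5.7 with 0.2 (the study's), removal of failed estimates, FPKM + 1 in the shares and Pearson correlation. Matching of older or joined gene symbols was added after seeing the data.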

Additional observations from a re-analysis of the deposited data

Results flagged for a closer look

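For 2 members, the effect of a contrast had opposite signs in the other genotype or subset. The Itgal ratio between Ly6Clo and Ly6Chi monocytes was 1.16 in controls and -0.17 without RBP-J. The Itga4 ratio between genotypes was -0.54 in Ly6Clo and 0.29 in Ly6Chi monocytes, and its ratio between subsets was 0.73 in controls and -0.10 without RBP-J. With 1 library per group these differences were not tested, and the Itgal value of -0.17 was at 0.00 after correction for GC content.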

How the results depend on the processing

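Over 53 results and 330 alternative values, 300 kept their side of 2-fold or, for counts and shares, stayed within 1.5 times, and 0 ratios past 2-fold changed sign. The number of members 2-fold lower without RBP-J in Ly6Clo monocytes, 3, was 5 with a pseudocount of 0.1, 5 at 1.5-fold and 1 at the thresholds of 5.7 and 0.2. In Ly6Chi monocytes it was 1 and 2, in place of 0, with the pseudocount of 0.1 and at 1.5-fold. Between control subsets, the 3 higher members became 5 at 1.5-fold and 1 at 5.7, and the 0 lower became 1 with the pseudocount of 0.1, 1 with TPM and 2 at 1.5-fold. Between RBP-J-deficient subsets, the 0 higher became 1 with the pseudocount of 0.1 and 2 at 1.5-fold, and the 2 lower became 1 with a pseudocount of 5, 1 with a filter of 5 FPKM, 0 at 5.7 and 0.2, and 3 with the pseudocount of 0.1 and at 1.5-fold. GC correction left 2 of the 3 lower in Ly6Clo between genotypes and 2 of the 3 higher between control subsets. The Itgax share in RBP-J-deficient Ly6Chi monocytes was 1.61% with FPKM + 1 in place of 0.976%. The Itgax ratio between genotypes in Ly6Clo monocytes lay between -3.41 and -2.26. Of 240 ratios of single members, 227 kept their side of 2-fold and 5, all near 0, changed sign. Older symbols changed no member. No paired analysis was possible because each group is 1 library. The lack of replicates and of read counts limits every value, most at low FPKM.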
